A study of Mus musculus with 4 samples.

Results

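The Hox family of the adult mouse lung was followed in droplet 3′ RNA sequencing of cells that were negative for CD45 and CD31, the surface proteins of blood and endothelial cells. Its members were taken as every feature whose symbol is Hoxa, Hoxb, Hoxc or Hoxd followed by a number, which gave 39 genes in 40 of the 31055 rows of the count matrix (Hoxd4 has more than 1 row, and its rows were summed). The lungs came from tamoxifen-dosed mice of about 8 weeks, heterozygous for Gli1_Cre_ERT2 and for the Rosa_mTmG reporter. Cre in these mice is driven from the Gli1 locus, a target of hedgehog signalling, and recombined cells switch from membrane tomato to membrane GFP. The labels give the strain as C57BL/6J in one field and as B6D2F1/J in others, and give neither sex nor tamoxifen dose. The 4 samples carry the same labels and form 1 group, and no map from cells to samples was used here. All cells therefore count as 1 sample, there is no test of any difference, and every interval below is a 95% interval that covers counting error only.

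Hox genes encode homeodomain transcription factors that give cells a positional identity along the head-to-tail axis. In the mouse they lie in 4 chromosomal clusters, Hox A on chromosome 6, Hox B on chromosome 11, Hox C on chromosome 15 and Hox D on chromosome 2, and are numbered by paralogue position, with low positions used toward the head and high positions toward the tail. Hox proteins bind DNA together with TALE cofactors of the Pbx and Meis families. In the developing mouse lung Hoxa5 acts in the mesenchyme, and mice that lack it mostly die around birth with defects of the trachea and lung. Its paralogue Hoxb5 has a partly overlapping role there.

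After filtering, 8933 cells with 76127432 unique molecule counts (UMIs) and a median of 7967 UMIs were grouped into 22 clusters, with Hox genes kept out of the clustering. Named classes comprised 209 mesothelial-like cells, 4366 mesenchymal cells and 1732 epithelial cells. Among the mesenchymal cells 1868 were adventitial fibroblast-like, 1892 alveolar fibroblast-like, 426 peribronchial or myofibroblast-like and 180 smooth muscle-like. Among the epithelial cells 1212 were alveolar type 2 (AT2)-like, 210 alveolar type 1 (AT1)-like, 238 ciliated-like and 72 club or secretory-like. The mesothelial-like cluster had all 9 of its markers in at least 25% of its cells, with Msln and Upk3b leading its genes. Leukocyte-like cells (91) and endothelial-like cells (61) were present despite the sort, and 1911 mesenchymal and 446 epithelial cells in clusters of unresolved class were kept out of the class comparisons. The 1911 cells, placed as mesenchymal by their marker scores, include 36 led by the cardiac muscle genes Myl7 and Tnnt2.

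Nearly all Hox RNA came from Hox A and Hox B at positions 1 to 8. The kept cells held 20644 Hox UMIs, of which Hox A had 52.6%, Hox B 46.9%, Hox C 0.402% and Hox D 0.0436%. The 15 genes of Hox A and Hox B at positions 1 to 8 held 99.5% of them, and 14 of these 15 reached 30 UMIs. The exception was Hoxb1, with 4 UMIs. The 16 genes at positions 9 to 13 together had 12 UMIs, none had more than 3, and 8 of the 16 had none. Over the family, 12 genes had no UMI, 12 had 1 to 29 and 15 had at least 30. Outside Hox A and Hox B, Hoxc4 with 67 UMIs was the sole member to reach 30. Hoxc5 followed with 13 UMIs, and all 9 genes of Hox D together had 9.

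**Figure D1:**
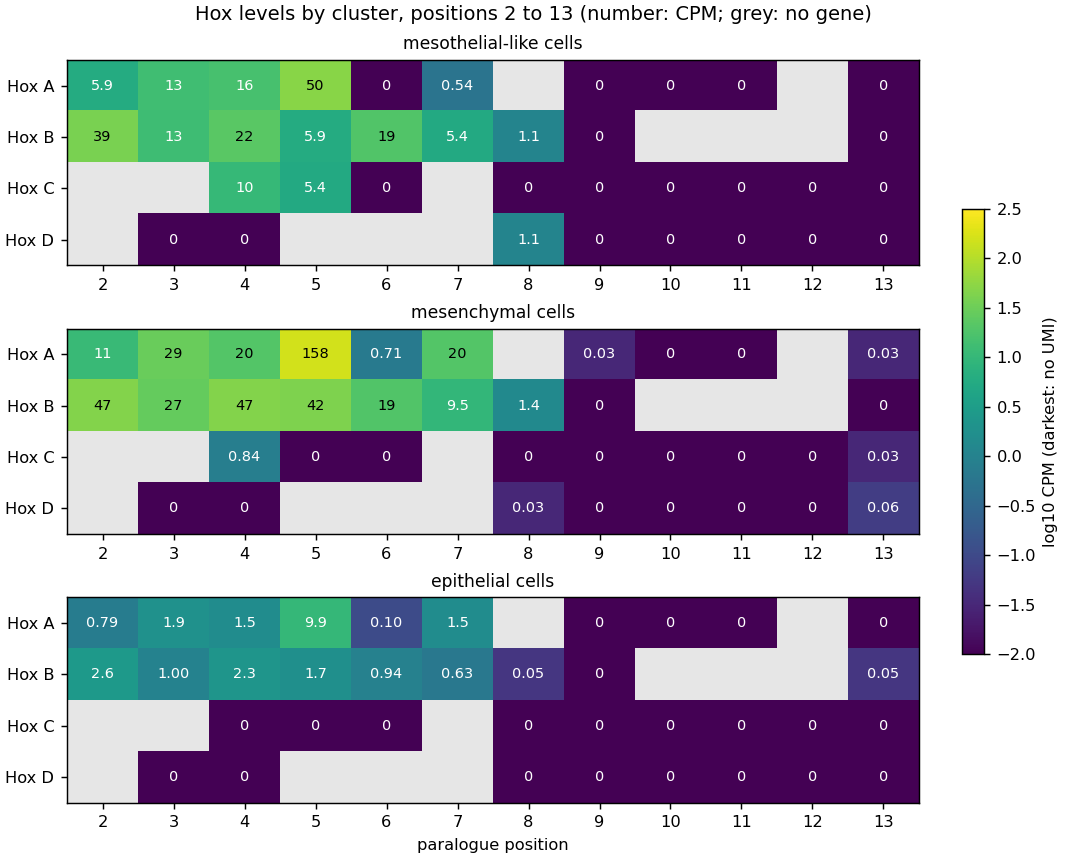
Level of the Hox genes at positions 2 to 13 as UMIs per 1000000 UMIs of the class (CPM, printed in each cell; colour on a log10 scale) by chromosomal cluster and paralogue position in mesothelial-like, mesenchymal and epithelial cells. Hox A and Hox B at positions 2 to 5 are filled in all 3, Hoxa6 is at 0 in mesothelial-like cells, Hoxc4 and Hoxc5 stand out in mesothelial-like cells, and positions 9 to 13 hold 12 UMIs over all kept cells.

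Hoxa5 was the most abundant member, with 6885 UMIs in 3210 cells. Hoxb2 (2356 UMIs), Hoxb4 (2288), Hoxb5 (2125), Hoxa3 (1519), Hoxb3 (1388), Hoxb6 (996), Hoxa4 (924), Hoxa7 (839), Hoxa2 (541) and Hoxb7 (453) followed, and Hoxb8 (72) and Hoxa6 (30) were low. The 3′ kit counts one end of each molecule, so these are counts of molecules not divided by gene length, and they also depend on how well each 3′ end is annotated. Hoxa3 overlaps Hoxa4, Hoxa5 and Hoxa6 on the same strand, but the last 500 exonic bases of the Hox A and Hox B genes overlap no other gene on their strand. Those last 500 bases overlap an antisense gene by 100% for Hoxa7 (Hoxaas3) and for Hoxb2 (Hoxb3os), by 98.6% for Hoxb3 and by 51.0% for Hoxa4. Whether counting used strand is not given in the sources used here, so reads of these genes and their antisense partners may not be separable.

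The same paralogue position had unlike outcomes on different chromosomes. At position 4, Hoxb4 was among the most abundant members, Hoxa4 had 924 UMIs and Hoxd4 had no UMI. Hoxc4 had 67 UMIs, of which 19 were in mesothelial-like and 26 in mesenchymal cells. The RefSeq promoters of Hoxb4, Hoxc4 and Hoxd4, and of Hoxa5, the most abundant member, are shown for that reason (Hoxa4 had none in the set used). They run from 250 bases before to 50 after the start of transcription, 5′ to 3′ on the gene's strand (GRCm38.p6). They lie at chr6:52204538-52204837 on the minus strand (Hoxa5), chr11:96318017-96318316 on the plus strand (Hoxb4), chr15:103034145-103034444 on the plus strand (Hoxc4) and chr2:74721728-74722027 on the plus strand (Hoxd4). Capitals mark matches, on either strand, to TATAAA (the TATA box), AGGTCA and AGTTCA (hexamers bound by nuclear receptors), TGATNNAT (a Pbx-Hox element) or TAATTA (a homeodomain core), and no match overlaps another.
Hoxa5: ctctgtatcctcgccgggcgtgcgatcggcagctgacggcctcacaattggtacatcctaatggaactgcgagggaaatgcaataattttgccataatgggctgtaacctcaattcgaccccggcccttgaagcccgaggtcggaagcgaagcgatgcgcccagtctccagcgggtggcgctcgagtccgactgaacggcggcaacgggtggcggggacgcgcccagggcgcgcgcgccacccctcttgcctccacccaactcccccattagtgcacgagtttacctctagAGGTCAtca
Hoxb4: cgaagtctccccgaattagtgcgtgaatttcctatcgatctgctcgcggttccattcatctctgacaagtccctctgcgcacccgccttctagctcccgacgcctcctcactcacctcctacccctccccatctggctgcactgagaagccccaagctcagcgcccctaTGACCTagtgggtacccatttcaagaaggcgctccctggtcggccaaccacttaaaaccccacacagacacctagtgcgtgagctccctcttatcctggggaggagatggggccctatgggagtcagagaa
Hoxc4: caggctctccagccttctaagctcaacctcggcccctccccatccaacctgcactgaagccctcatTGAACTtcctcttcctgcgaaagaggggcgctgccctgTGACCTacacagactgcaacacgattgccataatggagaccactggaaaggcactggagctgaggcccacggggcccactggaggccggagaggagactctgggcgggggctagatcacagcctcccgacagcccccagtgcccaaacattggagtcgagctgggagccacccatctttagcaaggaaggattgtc
Hoxd4: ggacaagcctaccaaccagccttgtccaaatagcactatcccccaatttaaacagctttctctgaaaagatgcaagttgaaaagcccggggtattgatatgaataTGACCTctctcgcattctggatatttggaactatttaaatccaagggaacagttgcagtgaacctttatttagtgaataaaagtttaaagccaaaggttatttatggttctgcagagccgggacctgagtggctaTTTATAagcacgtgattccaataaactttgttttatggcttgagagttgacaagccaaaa
AGGTCA was present in each of these 4 promoters, as TGACCT where it lies on the other strand, in 7 of the 24 Hox promoters of the table (29.2%, for 22 of the 39 genes) and in 16.3% of all 32851 promoters. Hoxc4 also held AGTTCA, found in 2 of the 24 Hox promoters (8.33%) and in 13.99% of all promoters, and Hoxd4 held TATAAA, found in 4 of the 24 and in 13.6% of all promoters. TGATNNAT (8.85% of all promoters) and TAATTA (5.29%) were in none of these 4. The Hoxd4 window had 39.7% G and C bases and 4 CpG sites, against 58.0% and 14 for Hoxb4, 60.3% and 9 for Hoxc4, and 61.7% and 29 for Hoxa5. The Hoxc4 and Hoxd4 windows start inside the longer gene models of the GENCODE annotation, so other transcripts of these genes start elsewhere.

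Mesenchymal cells carried far more Hox RNA than epithelial cells, in every measured member. The summed Hox level was 435 CPM (428 to 442) in mesenchymal cells, against 25.1 CPM (22.9 to 27.4) in epithelial cells, a ratio of 17.3 (15.8 to 19.0). CPM is the number of UMIs per 1000000 UMIs of a class, and a ratio was formed for each feature with 30 or more UMIs in the 2 groups together. All 13 members so measured had a ratio of 2 or more, as did 24.8% of all features, and none had 0.5 or less, as did 19.9%. Their ratios ran from 12.9 for Hoxa7 to 27.0 for Hoxb3, with a median of 18.1, against a median of 1.14 over all features. Cells under 2000 UMIs (145 mesenchymal and 33 epithelial) were left out of all thinned shares, and unthinned shares cover all cells of a class. With each remaining cell thinned to 2000 UMIs, 57.5% of mesenchymal cells (56.0% to 59.0%) and 3.18% of epithelial cells (2.40% to 4.13%) had a Hox UMI. Unthinned, the shares were 87.7% of mesenchymal and 9.06% of epithelial cells. As background, 0.831% of thinned AT2-like cells and 7.50% of thinned leukocyte-like cells had one. Median depth before thinning was 6546 UMIs in mesenchymal, 9565 in epithelial, 9262 in AT2-like and 6482 in leukocyte-like cells. The summed ratio was 7.50 when doublets were kept, 10.1 under stricter filters and 51.1 without AT1-like cells. In mesenchymal cells the median number of Hox genes with a UMI was 2 per cell and the highest was 9.

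Within the epithelium, Hox levels were higher in cells with more fibroblast RNA. AT1-like cells had 173 CPM of Hox RNA (155 to 193), ciliated-like cells 10.2 CPM (7.05 to 14.2) and AT2-like cells 6.11 CPM (4.76 to 7.72). Across 12 fibroblast genes (Col1a1, Col3a1, Dcn, Pdgfra and others), AT1-like cells had a median of 10.1% of the mesenchymal level. The lowest of these genes was at 2.15% and the highest at 49.0%. The Hox level of AT1-like cells was 39.9% of the mesenchymal one. Set beside alveolar-like fibroblasts alone, it was 173 CPM, against 678 CPM. The 10 alveolar fibroblast markers summed to 5509 CPM in AT1-like cells, against 16818 CPM in those fibroblasts. For AT2-like cells the median of the 12 genes and the Hox level were 0.917% and 1.40% of the mesenchymal ones. They were 1.84% and 2.34% for ciliated-like cells, and 1.88% and 4.13% for club or secretory-like cells. The cells of each class were divided by the summed level of the 12 genes, at the 95th percentile of AT2-like cells (648 CPM), a division chosen after the class values were seen. The 89 AT1-like cells above that limit held 326 of the 332 Hox UMIs, or 337 CPM (302 to 376). The 121 at or below it had 6, or 6.33 CPM (2.32 to 13.8). AT2-like cells at or below the limit had 4.12 CPM (3.00 to 5.51), on 45 of the 70 Hox UMIs of that class. Hox A made up 67.5% of Hox UMIs in AT1-like cells and 67.8% in alveolar fibroblast-like cells. In alveolar epithelial cells with little fibroblast RNA the Hox level was thus 6.33 CPM (AT1-like) and 4.12 CPM (AT2-like), with upper limits of 13.8 and 5.51 CPM.

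**Figure D2:**
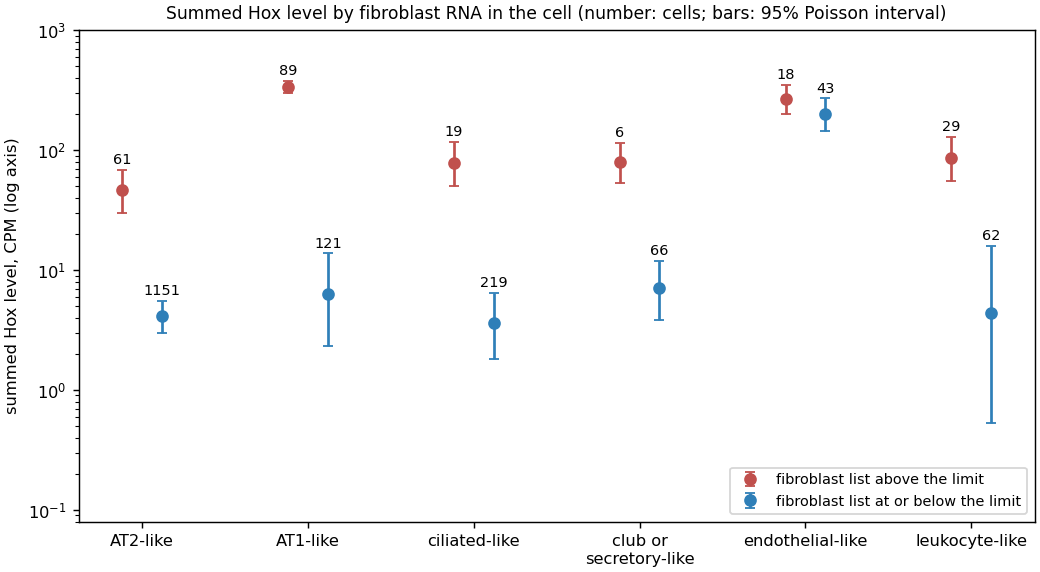
Summed Hox level (CPM, log axis, with 95% Poisson intervals and the number of cells) in epithelial, endothelial-like and leukocyte-like cells above and at or below the limit for fibroblast RNA. In the 4 epithelial classes and in leukocyte-like cells the level is lower where fibroblast RNA is low; in endothelial-like cells it is 268 CPM above and 200 CPM at or below the limit.

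Endothelial-like cells kept Hox RNA where fibroblast RNA was low. Their summed Hox level was 233 CPM (189 to 284) on 96 UMIs, and the 43 cells at or below the fibroblast limit still had 200 CPM (145 to 270), with 97.8 CPM of Hoxa5. The 62 leukocyte-like cells at or below the limit had 2 Hox UMIs, 4.37 CPM (0.530 to 15.8). Endothelial cells were meant to be removed by the sort, and the few that remain need not represent those of the lung.

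Adventitial-like fibroblasts had less Hox RNA than alveolar-like fibroblasts, and the shortfall lay mainly in Hox A. The summed level was 307 CPM (299 to 315) in adventitial-like cells, against 678 CPM (663 to 695) in alveolar-like cells, a ratio of 0.452 (0.436 to 0.469). Hox A had a ratio of 0.304 (0.289 to 0.319) and Hox B of 0.758 (0.717 to 0.802). Of 12 measured members none had a ratio of 2 or more, against 9.82% of all features, and 6 had a ratio of 0.5 or less, against 11.4%. The median ratio was 0.49 over the members and 0.91 over all features.

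Hoxa5 made up most of this difference. It stood at 78.5 CPM (74.4 to 82.8) in adventitial-like cells, against 329 CPM (318 to 340) in alveolar-like cells, a ratio of 0.239. With cells thinned to 2000 UMIs it was detected in 13.2% of the adventitial-like class (42.8% unthinned) and in 42.6% of the alveolar-like class (65.8% unthinned). Cells under 2000 UMIs, 3 adventitial-like and 123 alveolar-like, were left out of the thinned shares. The 3 adventitial-like clusters ran from 49.3 to 93.3 CPM and the 3 alveolar-like clusters from 161 to 367 CPM, without overlap. Clusters of 1 library are not replicates, and this is a description. Of the 12 members, 3 had adventitial-like cluster ranges wholly below the alveolar-like ones (Hoxa5, Hoxa7 and Hoxb5), against 17.2% of all features. None had them wholly above, against 16.7% of all features. In the 3 largest mesenchymal clusters of unresolved class, Hoxa5 was at 197 CPM where Bpifa2 and Fmod led, at 62.4 CPM where Lamc3 led and at 50.8 CPM where Dio2 led. Without Hoxa5 the summed Hox ratio was 0.653 (0.624 to 0.684).

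The other members of Hox A split in a way that did not follow position. Hoxa7 was at 9.13 CPM in adventitial-like cells, against 40.8 CPM in alveolar-like cells (ratio 0.224). Hoxa4 had 13.4 CPM in adventitial-like cells, against 34.1 CPM in alveolar-like cells (0.393), and Hoxa2 had 7.65 CPM in adventitial-like cells, against 19.0 CPM in alveolar-like cells (0.404). Between them on the chromosome, Hoxa3 was nearly level, with 29.5 CPM in adventitial-like cells, against 30.6 CPM in alveolar-like cells (0.965, 0.837 to 1.11).

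Along Hox B, by contrast, the ratio moved with position. It was 0.906 for Hoxb2 (42.3 CPM in adventitial-like cells, 46.7 CPM in alveolar-like cells) and 0.840 for Hoxb3 (25.1 and 29.9 CPM in the same order). Hoxb4 followed at 0.806 (42.9 and 53.2 CPM), Hoxb5 at 0.743 (36.3 and 48.9 CPM) and Hoxb6 at 0.582 (13.5 and 23.3 CPM). Hoxb7 had the lowest ratio of Hox B, 0.359, on 88 adventitial-like and 143 alveolar-like UMIs. Hoxb8 was below the minimum for a ratio, with 4 adventitial-like and 24 alveolar-like UMIs. The intervals of neighbouring positions overlapped from Hoxb2 to Hoxb5, and those of Hoxb5 and Hoxb7 did not.

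**Figure D3:**
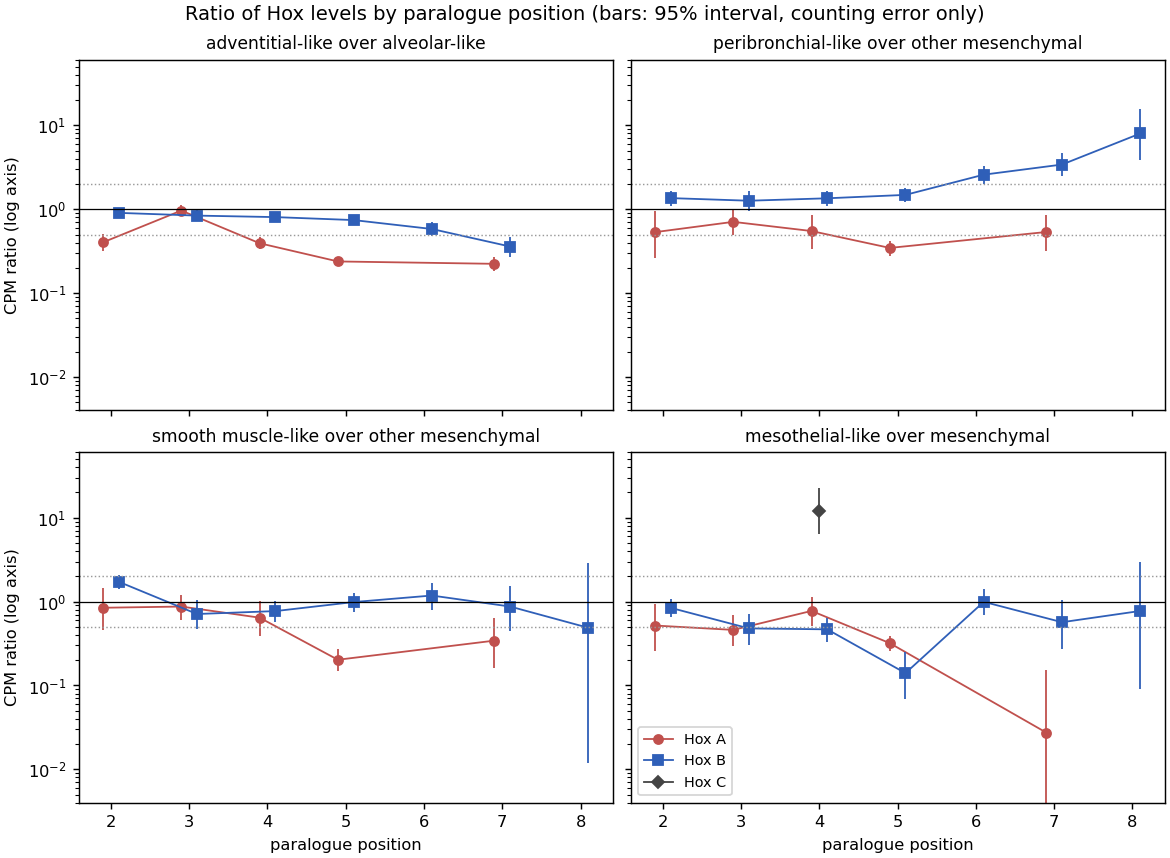
Ratio of CPM by paralogue position for members at positions 2 to 8 with at least 30 UMIs in each comparison (log axis, 95% intervals from counting error; dotted lines at 2 and 0.5). The Hox B ratio declines with position in adventitial-like over alveolar-like cells and climbs to 8.00 for Hoxb8 in peribronchial-like over other mesenchymal cells, while mesothelial-like cells stand at 12.1 for Hoxc4 and 0.0274 for Hoxa7.

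Peribronchial or myofibroblast-like cells, a cluster led by Hhip, had higher levels of Hoxb6, Hoxb7 and Hoxb8 than other mesenchymal cells. The cluster was close to smooth muscle by its markers. It had a mean marker z-score of 2.58 for its own list, with all 10 markers in at least 25% of cells, and of 2.41 for the smooth muscle list, with 6 of 8. Smooth muscle markers summed to 12590 CPM in this cluster and to 38882 CPM in the smooth muscle-like cluster. The comparison with all other named mesenchymal cells was added after class values were seen. Hoxb8 was at 7.95 CPM in these cells, against 0.993 CPM in the other mesenchymal cells, a ratio of 8.00 (3.91 to 15.6) on 14 and 29 UMIs. Hoxb7 had 28.4 CPM in peribronchial-like cells, against 8.32 CPM in the others (3.41, 2.46 to 4.64). Hoxb6 had 44.9 CPM in peribronchial-like cells, against 17.4 CPM in the others (2.58, 2.01 to 3.28). Smooth muscle-like cells had ratios to other mesenchymal cells of 1.18 for Hoxb6, 0.873 for Hoxb7 and 0.486 for Hoxb8. In peribronchial-like cells these were the 3 of 13 measured members with a ratio of 2 or more, against 7.58% of all features. From Hoxb2 to Hoxb5 the ratios were 1.36, 1.26, 1.35 and 1.48. Hoxa5 was lower, with 56.8 CPM (0.346, 0.281 to 0.422). Alveolar-like cells held 3368 of the 4792 Hoxa5 UMIs of the other mesenchymal cells, and adventitial-like cells alone had 78.5 CPM. In all 2 of 13 had a ratio of 0.5 or less, against 14.7% of all features, and it was 1 of 13 with doublets kept or at the finer clustering. The summed Hox level was 409 CPM, a ratio of 0.936 (0.867 to 1.01) that was 1.005 under stricter filters. Hox A had a ratio of 0.432 and Hox B of 1.61.

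Smooth muscle-like cells, marked by Acta2 and Myh11, had Hoxb2 as their highest Hox ratio. Hoxb2 was at 77.5 CPM (63.8 to 93.3), a ratio of 1.72 (1.41 to 2.09) to other mesenchymal cells, and its antisense partner Hoxb3os had a ratio of 3.27 (2.23 to 4.66). Hoxa5 was at 33.2 CPM (0.202, 0.149 to 0.269) and Hoxa7 at 6.92 CPM (0.342, 0.163 to 0.634). Alveolar-like cells held 3368 of the 4844 Hoxa5 UMIs and 418 of the 597 Hoxa7 UMIs of the other mesenchymal cells. Adventitial-like cells alone had 78.5 CPM of Hoxa5 and 9.13 CPM of Hoxa7, so these low ratios in part reflect high alveolar-like levels. No member of 13 had a ratio of 2 or more, against 9.96% of all features, and 3 had 0.5 or less, against 18.3%. Besides Hoxa5 and Hoxa7 this was Hoxb8, on 1 UMI in smooth muscle-like cells. Hox A made up 26.4% of the Hox UMIs of peribronchial-like cells, 30.5% of those of smooth muscle-like cells, 45.6% of those of the adventitial-like class and 67.8% of those of the alveolar-like class.

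**Figure D4:**
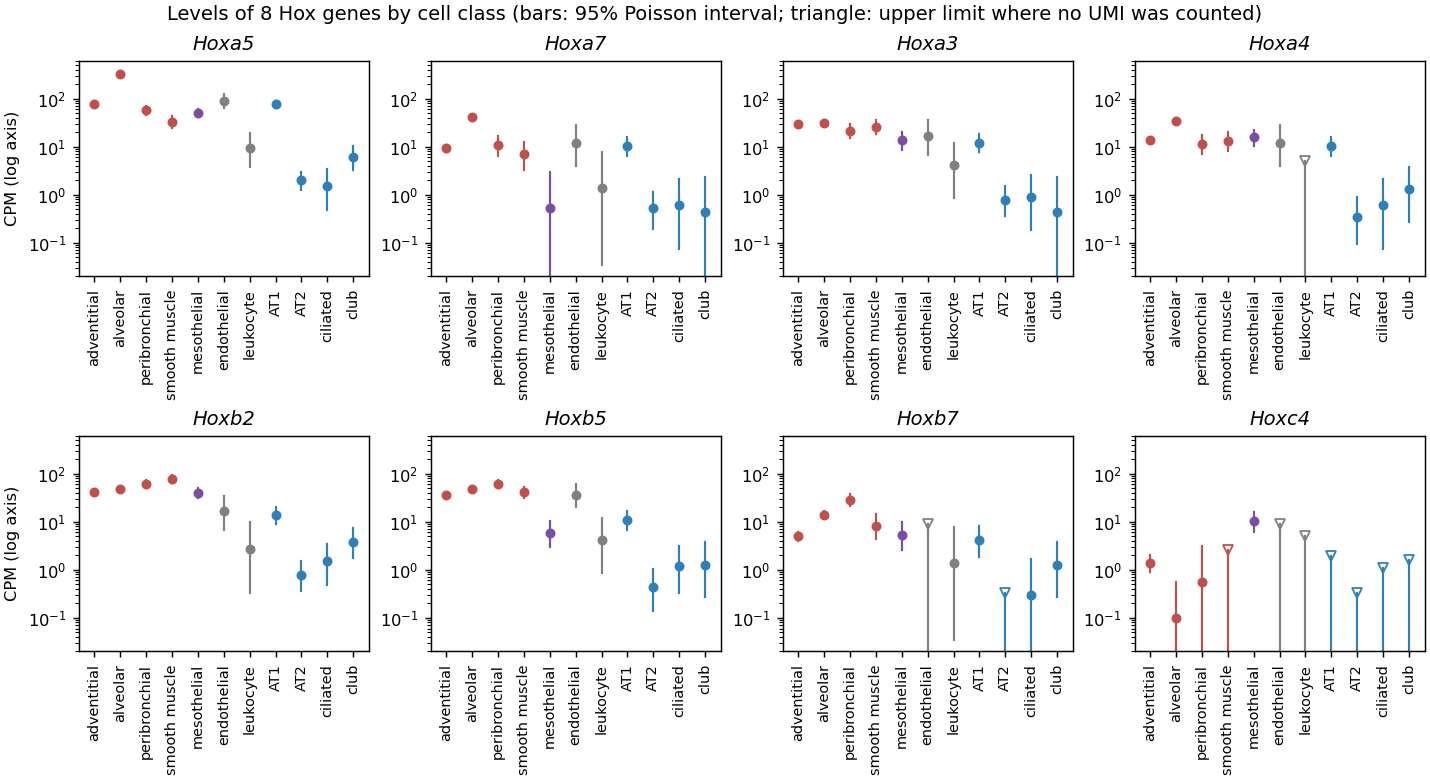
Levels of 8 Hox genes (CPM, log axis, 95% Poisson intervals; open triangles mark the upper limit where no UMI was counted) in mesenchymal (red), mesothelial-like (purple), endothelial-like and leukocyte-like (grey) and epithelial (blue) classes. Hoxa5 and Hoxa7 peak in alveolar-like fibroblasts at 329 and 40.8 CPM, Hoxb7 in peribronchial-like cells at 28.4 CPM, and Hoxc4 in mesothelial-like cells at 10.2 CPM.

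Mesothelial-like cells, which cover the lung surface, had a Hox profile of their own. Their summed level was 214 CPM (194 to 236), against 435 CPM (428 to 442) in mesenchymal cells, a ratio of 0.492 (0.445 to 0.544). It was 8.54 (7.45 to 9.77) times that of epithelial cells, over which 8 of 9 measured members had a ratio of 2 or more (20.7% of all features) and 1, Hoxa7, had 0.5 or less (19.8%). Over mesenchymal cells, 2 of 14 measured members had a ratio of 2 or more, against 14.8% of all features, and 6 had 0.5 or less, against 17.9%. The count of 2 was 0 when clusters and values came from separate parts of the UMIs, where Hoxc4 had under 30 UMIs. With thinned cells, 32.4% of mesothelial-like cells (26.0% to 39.2%) had a Hox UMI, and 81.3% unthinned.

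Hoxc4 and Hoxc5 had their highest levels in mesothelial-like cells. Hoxc4 was at 10.2 CPM (6.14 to 15.9) in 19 of 209 mesothelial-like cells, against 0.840 CPM (0.549 to 1.23) in mesenchymal cells, a ratio of 12.1 (6.35 to 22.8). Adventitial-like cells held 24 of the 26 mesenchymal Hoxc4 UMIs (1.37 CPM). Clusters of unresolved mesenchymal class held 17 more (1.02 CPM) and unnamed clusters 5. Alveolar-like and peribronchial-like cells had 1 UMI each and smooth muscle-like cells none, at a limit of 2.08 CPM for 3 UMIs. No epithelial cell had a Hoxc4 UMI, at a limit of 0.157 CPM. Hoxc5 had 10 of its 13 UMIs in mesothelial-like cells (5.37 CPM, 2.57 to 9.87) and none in named mesenchymal cells, so that the lower 95% limit of the ratio was 37.2. The other 3 UMIs were in mesenchymal clusters of unresolved class. Hox C made up 7.27% of Hox UMIs in mesothelial-like cells and 0.200% in mesenchymal cells.

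Other members of the mesothelial profile differed gene by gene. Hoxa7 had 1 UMI, 0.537 CPM in mesothelial-like cells, against 19.6 CPM in mesenchymal cells (0.0274, 0.000692 to 0.153). Its antisense partner Hoxaas3 was at 12.9 CPM in mesothelial-like cells, against 5.94 CPM in mesenchymal cells, the opposite direction. Hoxb5 was at 5.90 CPM in mesothelial-like cells, against 42.1 CPM in mesenchymal cells (0.140, 0.0699 to 0.252). Hoxa5 was at 50.5 CPM in mesothelial-like cells, against 158 CPM in mesenchymal cells (0.319) and 78.5 CPM in the adventitial-like cells among them. The 10 alveolar fibroblast markers summed to 1240 CPM in mesothelial-like cells, against 16818 CPM in alveolar-like fibroblasts. The 11 adventitial fibroblast markers summed to 6315 CPM in mesothelial-like cells, against 28089 CPM in adventitial-like fibroblasts. The part of either list in the Hoxa5 level was not tested. Hoxa3 (0.460), Hoxb3 (0.479) and Hoxb4 (0.467) made up the 6. Hoxb6 was level at 18.8 CPM in mesothelial-like and 18.9 CPM in mesenchymal cells (0.993, 0.685 to 1.40), next to Hoxb5 on the chromosome, and Hoxb2 had 39.2 and 46.5 CPM in the same order (0.842, 0.657 to 1.07).

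The authors' deposited cluster table was read for the same members. The authors' deposited table lists 28 Hox genes over 17 clusters as mean counts per cell. In cluster 15 of the authors' deposited table, where the mesothelial list scored highest, the mean count was 0.0688 for Hoxc4, 0.0393 for Hoxc5 and 0.00982 for Hoxa7. For its cluster 1, where the alveolar fibroblast list scored highest, the authors' deposited table gives 2.45 for Hoxa5 and 0 for Hoxc4. For its cluster 4, where the AT2 list scored highest, the authors' deposited table gives 0.0241 for Hoxa5. Over the 17 clusters of the authors' deposited table, made from the same library, Hoxc4 was highest in cluster 15 and Hoxa5 in cluster 1.

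Noncoding transcripts of the Hox loci also differed between classes. Hotairm1, an antisense RNA of the Hox A cluster, was at 19.6 CPM in adventitial-like cells, against 69.1 CPM in alveolar-like cells (0.283, 0.248 to 0.323). It was at 82.7 CPM in mesothelial-like cells, against 37.5 CPM in mesenchymal cells (a ratio of 2.2, 1.85 to 2.61). Hoxb5os, named as the opposite strand of Hoxb5, was at 1.07 CPM in mesothelial-like cells, against 8.79 CPM in mesenchymal cells (0.122, against 0.140 for Hoxb5). In mesothelial-like over mesenchymal cells, Hoxaas3 and Hoxa7 went in opposite directions, as given above. Of the 18 listed noncoding features 5 were measured, and all 5 had a ratio of 2 or more in mesenchymal over epithelial cells, against 24.8% of all features. In adventitial-like over alveolar-like cells 3 of the 5 had a ratio of 0.5 or less, against 11.4% of all features, and none had 2 or more, against 9.82%.

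Several TALE cofactors, the partners of Hox proteins on DNA, were higher in mesenchyme. Of 11 measured, 5 had a ratio of 2 or more in mesenchymal over epithelial cells, against 24.8% of all features, and 2 had 0.5 or less, against 19.9%, with a median of 1.80, against 1.14 over all features. Meis1 was at 53.8 CPM in mesenchymal cells, against 2.68 CPM in epithelial cells (20.1). Meis2 (21.0) and Meis3 (4.24) were also among the highest ratios. Pbx4 (0.252) and Pbx3 (0.339) were lower. Mesothelial-like cells had 119 CPM of Meis2, against 46.2 CPM in mesenchymal cells (2.58), and less of Pknox2 (0.113), Meis3 (0.166) and Tgif1 (0.448). That is 1 of 10 at 2 or more, against 14.8% of all features, and 3 of 10 at 0.5 or less, against 17.9%. In adventitial-like over alveolar-like cells no TALE cofactor of 10 had a ratio of 2 or more, against 9.82% of all features, and 1 had 0.5 or less (Pbx3, 0.441), against 11.4%. In peribronchial-like over other mesenchymal cells 1 of 10 had 2 or more, Pbx3 (3.51, 2.47 to 4.90), against 7.58% of all features. There 2 of 10 had 0.5 or less, Pknox2 (0.228, 0.0833 to 0.501, on 6 and 436 UMIs) and Meis2 (0.465), against 14.7%.

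Few regulators of Hox genes, a list of chromatin genes and Cdx transcription factors, passed a 2-fold difference. Of 19 measured of the 22 listed, which include the Trithorax gene Kmt2a and the Polycomb genes Ezh2 and Bmi1, 2 had a ratio of 2 or more in mesenchymal over epithelial cells (Kdm6b, 2.29, and Cbx2, 2.15), against 24.8% of all features, and none had 0.5 or less, against 19.9%. In mesothelial-like over mesenchymal cells 1 of 19 had 2 or more (Bmi1, 2.41), against 14.8% of all features, and none had 0.5 or less, against 17.9%. In adventitial-like over alveolar-like cells 2 of 19 had 0.5 or less, among them Cbx8 (0.387), against 11.4% of all features, and none had 2 or more, against 9.82%. Among the 6 retinoid receptors, which transmit a signal known to regulate Hox genes, Rarb was at 4.51 CPM in adventitial-like cells, against 0.879 CPM in alveolar-like cells (5.13, 2.57 to 11.6), and Rxrg was lower (0.303). In mesothelial-like over mesenchymal cells Rarb had a ratio of 2.27. Rxrg had no UMI among the 1863152 of mesothelial-like cells, against 80 among the 30960683 of mesenchymal cells. The mesothelial-like total is far smaller, so this absence sets only a loose limit. In mesenchymal over epithelial cells Rxrg (16.4), Rarg (3.15) and Rara (2.39) were higher and Rarb lower (0.415).

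Within a class, Hox level and the Gli1 lineage reporter were set beside each other. Cells with at least 1000 CPM of Egfp were matched by cluster and total UMIs to cells under 200 CPM. The summed Hox ratio of reporter-high over reporter-low cells was 0.918 (0.860 to 0.979) in 647 adventitial-like pairs, 1.01 (0.946 to 1.07) in 547 alveolar-like pairs and 1.06 (0.895 to 1.25) in 167 peribronchial-like pairs. In 51 smooth muscle-like pairs it was 0.936 (0.717 to 1.22), and 1.01 (0.804 to 1.27) without matching. In 92 mesothelial-like pairs it was 0.745 (0.598 to 0.925). Of 60 single-gene ratios, 3 had an interval that leaves out 1. With no difference in any gene, 95% intervals leave out 1 in up to 5% of ratios, which is also 3 of 60. The 3 were Hoxa4 in adventitial-like cells (0.708, 0.511 to 0.976), Hoxb7 in peribronchial-like cells (0.344, 0.148 to 0.738) and Hoxa5 in mesothelial-like cells. Mesothelial Hoxa5 was at 25.8 CPM in reporter-high cells, against 67.6 CPM in reporter-low cells (0.382, 0.219 to 0.641). The 12 fibroblast genes were also lower in these reporter-high mesothelial-like cells (0.593, 0.575 to 0.612), while alveolar fibroblast markers had a ratio of 1.08 and mesothelial markers of 1.22. The part of fibroblast RNA in the Hoxa5 ratio was not tested.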

How the data were processed

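UMI counts for each gene in each barcode were deposited unnormalized; the authors made them with Cell Ranger 3.0.0 on mm10, per the submitters' processing notes; no source used here gives the annotation release or strand setting. The authors' deposited cluster table gives mean counts per cell with log2 fold changes and adjusted p-values, of which the log2 values and p-values were not used. The authors' deposited run summary gives reads and a sequencing saturation of 51.0 percent of reads. Each sample had 65156149 to 74901791 reads passing filter.

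Of 11118 barcodes, 1296 with under 500 genes and 1545 over 10% mitochondrial UMIs were left out (some met both; 9391 remained), and Scrublet removed 458 predicted doublets (4.88%, at an expected 8%). Each cell was scaled to 10000 UMIs before taking logs. Clustering used 2000 variable genes without Hox, pathway-list, mitochondrial, ribosomal and reporter genes, 30 principal components, 15 neighbours and Leiden resolution 1 (seed 0; scanpy 1.11.5, leidenalg 0.10.2, Python 3.11.15). Clusters were named by mean marker z-score over 19 lists, with at least 3 markers in 25% of cells and were left unnamed where markers of another type led or the next list was within 0.3, unless 3 or more of the 10 leading genes were markers of the first list (as for the peribronchial or myofibroblast-like cluster). UMIs were summed over each class and divided by its total to give CPM, with exact Poisson intervals. Ratios have exact conditional binomial intervals and shares Clopper-Pearson intervals (scipy 1.17.1). The ratio intervals were tested on simulated counts that vary by counting error only, so that test does not cover variation between cells or animals. Ratios need 30 UMIs over both groups, and a count of 0 was set at 3 UMIs for limits. Genes were named where they were members, or among the 4 highest and 4 lowest ratios past 2 or 0.5 of a pathway list. Gene coordinates are from GENCODE M21 and promoters from RefSeq on GRCm38.p6. The members and lists were chosen with earlier results of these data known. A member and a pathway gene are not reported here by name, and counts and sums include them. With 1 pooled matrix there was no replicate and no test. Alternatives changed filters, doublets, resolution, variable genes, the UMIs used for clustering and the averaging.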

Additional observations from a re-analysis of the deposited data

How the results depend on the processing

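The summed ratio of mesenchymal over epithelial cells, 17.3 as reported, was 22.1 under looser filters, 10.1 under stricter ones, 7.50 with doublets kept, 21.0 at resolution 0.5, 20.9 with Hox and pathway genes allowed among the variable genes, 13.1 with clustering on some UMIs and levels from the others and 20.7 as a mean over cells. It was 19.0 with unresolved clusters counted and 51.1 without AT1-like cells, 2 alternatives chosen after seeing the data. The adventitial-like over alveolar-like sum, 0.452 as reported, was 0.418 under looser and 0.522 under stricter filters, 0.421 with doublets kept, 0.522 at resolution 2, 0.419 with Hox and pathway genes allowed and 0.426 with UMIs so divided, and the count at 2 or more was 0 as reported and 1 at resolution 0.5 and at resolution 2. The mesothelial-like over mesenchymal sum stayed within counting error of 0.492 in every alternative run, while its count at 2 or more was 2 as reported and 0 with UMIs so divided. The peribronchial-like sum was 0.936 as reported, 1.005 under stricter filters and 0.842 as a mean over cells, and its count at 0.5 or less was 2 as reported and 1 with doublets kept and at resolution 2. Of 552 single-gene values under alternatives, 501 stayed within their intervals and 51 moved outside them. None of the 309 whose reported ratio was past 2 or 0.5 crossed 1, while 10 of the others did, in 6 results: Hoxa3 in adventitial-like over alveolar-like cells (up to 1.04), Hoxb6 (1.19) and Hoxb8 (1.08) in mesothelial-like cells, and Hoxa2 (1.11), Hoxb5 (1.07) and Hoxb7 (1.10) in smooth muscle-like cells. Hoxa5 in adventitial-like over alveolar-like cells ran from 0.195 to 0.314 and Hoxc4 in mesothelial-like over mesenchymal cells from 10.8 to 17.5 in the 8 alternatives where it was measured. The causes were not tested. No paired analysis was possible because the cells of the 4 samples are pooled in 1 matrix, so no sample could be left out either.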

Other observations

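Across 13 clusters placed as mesenchymal or mesothelial-like by markers, Hox genes of 1 chromosomal cluster were compared by the correlation of their log CPM, as a description over clusters that share 1 library. The 13 include a cluster of 36 cells led by cardiac muscle genes and a shallow alveolar-like cluster of 141 cells (median 1721 UMIs). The weight of these 2 clusters in the correlations was not tested. The median Pearson r was 0.509 over 15 pairs within Hox B, 0.244 over 15 pairs within Hox A and 0.252 over 36 pairs between them. Hoxa5 went with Hoxa7 (0.679), its near neighbour in Hox A, and opposite to Hoxb2 (-0.324). The unnamed cluster of 41 cells led by the proliferation genes Ube2c and Top2a had 219 CPM of Hox RNA (186 to 256), and the 36 cells of unresolved class led by the cardiac muscle genes Myl7 and Tnnt2 had 284 CPM (229 to 349).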
